A study of Mus musculus with 2 samples.

Results

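The genes described here are 10 that encode the enzymes of fatty acid synthesis, elongation and desaturation, namely Acly, Acss2, Acaca, Fasn, Elovl5, Elovl6, Scd1, Scd2, Fads1 and Fads2. They were chosen by symbol among the 51912 genes of a study of mouse embryonic fibroblasts (MEFs), and each symbol was found on 1 row. The UKS cells are MEFs labelled Usp16-/-, whose floxed Usp16 alleles were exposed to Cre recombinase delivered by adenovirus (Ad-Cre). The KS cells are MEFs with the genotype Usp16+/+ that received the same virus. Both lines have a C57BL/6 background, were derived from embryos and had been immortalized with SV40T, the T antigen of a monkey virus. The labels give 1 RNA-seq library for each line, so no difference has a replicate check, no test between the lines was possible and every value describes these 2 libraries.

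Fatty acid synthesis starts from acetyl-CoA in the cytosol, which is carboxylated to malonyl-CoA and then joined into palmitate by a single multifunctional synthase. Elongases of the endoplasmic reticulum lengthen fatty acid chains, and desaturases insert double bonds into them, as in the oleate and the long polyunsaturated acids of membrane lipids. Transcription of these genes is known to be driven by the SREBP factors and, in some tissues, by LXR receptors, so they are often studied beside the genes of cholesterol synthesis.

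Levels are given in CPM, counts divided by the TMM-scaled total of their library, and ratios as log2((UKS + 1)/(KS + 1)), with 1 CPM added to each level. The added 1 CPM shrinks the differences of scarce genes. Folds carry no such addition. Brackets hold exact 95% intervals of the ratio of counts, which cover counting error only. Of the 51912 genes 13015 had a mean of at least 1 CPM and are called measured, and all 10 fatty acid genes were among them. The libraries held 23205757 counts in UKS and 26561619 in KS. Usp16, a deubiquitinase of histones, had 459 counts in UKS and 1195 in KS, 2.30-fold lower [2.07 to 2.57], and its log2 ratio of -1.16 was -0.88 with the trend in transcript length and GC content described below removed. Usp16 transcripts thus remained in UKS, and since the counts cover the whole gene they do not show whether the floxed part was lost. The lines also differed in sex-linked transcripts, with 6998 counts of Xist in UKS and 1 in KS, and 1 count of the Y-linked Ddx3y in UKS and 1511 in KS, so the effect of Usp16 and other differences between the lines cannot be told apart. Fibroblast markers were abundant in each. A ratio below 0 was found for 6 of 8, against 48.1% of measured genes, and for 6 with the trend removed, against 49.6%. Thy1 had 35.6 CPM in UKS and 168 CPM in KS, and Pdgfra had 106 CPM in UKS and 302 CPM in KS. Fn1, which encodes fibronectin, was 1 of the 2 above 0, at 14581 CPM in UKS and 8995 CPM in KS. Because these are bulk cultures, fewer cells of a type and less RNA per cell cannot be told apart.

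All 10 fatty acid genes had a ratio below 0, as did 48.1% of all measured genes. A log2 ratio of -1 or less, 2-fold lower in UKS, was reached by 4 of the 10 (Elovl6, Scd1, Scd2 and Acaca), against 10.7% of measured genes. None reached 2-fold higher, against 5.81%. At 1.5-fold 8 of the 10 were lower as counted, against 21.1%, and none was higher, against 15.4%. The median log2 ratio of the 10 genes was -0.74, beside 0.03 over all measured genes. Together the 10 genes took 43008 counts in UKS and 110138 in KS, which is 0.185% of the UKS library (Wilson 95% interval 0.184 to 0.187%) and 0.415% of the KS library (0.412 to 0.417%). Their summed level was 2.26-fold lower [2.24 to 2.29] in UKS. Without Scd1 and Scd2 it was 1.65-fold lower [1.62 to 1.67].

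**Figure D1:**
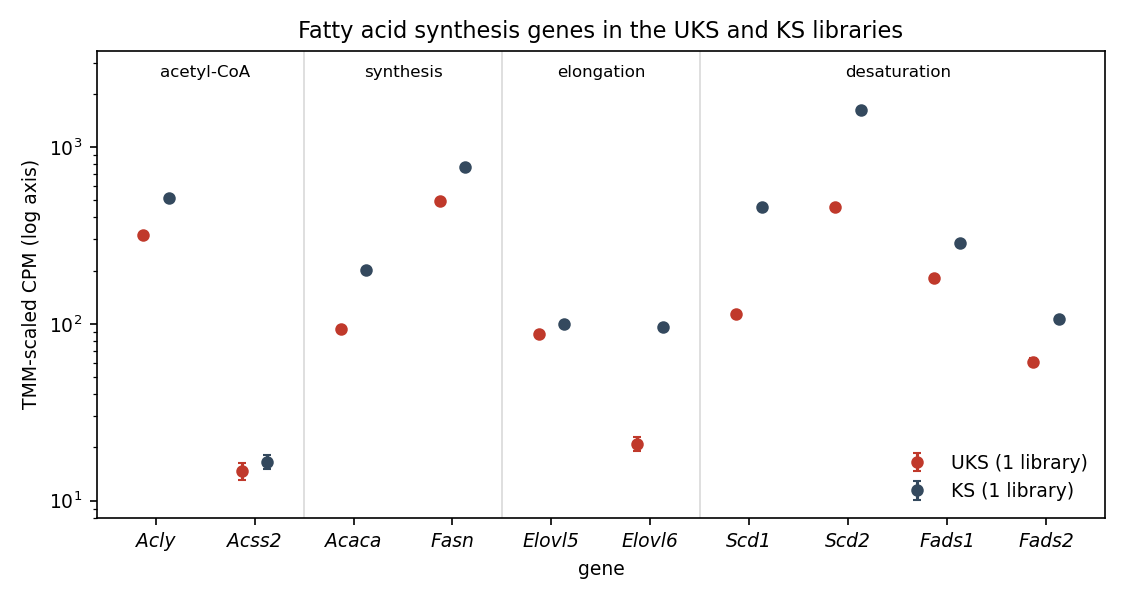
Level of each gene in the UKS library (red, left of each pair) and the KS library (dark, right of each pair) in TMM-scaled CPM on a log axis, with exact Poisson 95% intervals, grouped by step of the pathway. Every red point lies below its dark partner, with the widest gaps at Elovl6, Scd1 and Scd2 and the narrowest at Elovl5 and Acss2.

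Promoter sequences are shown for 3 of the genes, Elovl6, Elovl5 and Fasn, which encodes the synthase. As counted, the elongases Elovl6 and Elovl5 had the lowest ratio of the 10 and one of those nearest to 0. Each runs 5′ to 3′ on the strand of the gene from 250 bases before to 50 bases after the start of transcription, as annotated by RefSeq on GRCm38.p6. Capitals mark matches on either strand to the NF-Y box CCAAT or the E-box CACGTG.
Elovl6 promoter (chr3:129532136-129532435, plus strand): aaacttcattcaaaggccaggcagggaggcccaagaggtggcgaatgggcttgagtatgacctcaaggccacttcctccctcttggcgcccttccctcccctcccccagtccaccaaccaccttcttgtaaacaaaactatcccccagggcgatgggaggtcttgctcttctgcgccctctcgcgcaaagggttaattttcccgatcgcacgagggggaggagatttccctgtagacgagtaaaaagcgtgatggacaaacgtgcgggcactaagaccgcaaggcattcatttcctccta
Elovl5 promoter (chr9:77917115-77917414, plus strand): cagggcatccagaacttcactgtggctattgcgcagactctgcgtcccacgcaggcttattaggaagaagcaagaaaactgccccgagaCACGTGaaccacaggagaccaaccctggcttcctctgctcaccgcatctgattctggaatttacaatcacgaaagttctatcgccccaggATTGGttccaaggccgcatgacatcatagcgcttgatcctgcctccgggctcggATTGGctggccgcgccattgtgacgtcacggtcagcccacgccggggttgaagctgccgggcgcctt
Fasn promoter (chr11:120824498-120824797, minus strand): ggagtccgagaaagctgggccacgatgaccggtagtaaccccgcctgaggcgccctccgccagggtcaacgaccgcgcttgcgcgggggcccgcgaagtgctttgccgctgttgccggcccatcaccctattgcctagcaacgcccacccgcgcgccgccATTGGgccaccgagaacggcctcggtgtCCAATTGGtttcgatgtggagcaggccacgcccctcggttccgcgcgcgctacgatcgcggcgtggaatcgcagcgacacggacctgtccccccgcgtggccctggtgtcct
The Elovl6 window held no match to the 4 motifs searched, which were these and the sterol regulatory element core TCACNCCAC and the GC box GGGCGG. The Elovl5 window held 2 NF-Y boxes, starting 71 and 17 bases before the transcription start, and 1 E-box. The Fasn window held 3 NF-Y boxes, of which 2 on opposite strands overlap.

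Windows of this kind were available for 7 of the 10 genes (Acly, Acss2, Acaca, Fasn, Elovl5, Elovl6 and Fads2). The Acaca window (chr11:84195188-84195487) lies inside the span of the gene given below, so it describes an internal start and not the first one. Most of the Fads2 window (chr19:10101454-10101753) also lies inside the span given below for Fads2. An NF-Y box was present in 4 of the 7 (Acly, Acss2, Fasn and Elovl5), beside 37.4% of 32851 promoter windows of the same length. A GC box was present in 3 (Acly with 4, Acss2 with 5 and Fads2 with 1), beside 35.7%. The E-box was present in Elovl5 alone among the 7, beside 7.15%, and the sterol regulatory element core in none, beside 1.24%. A match describes letters in the window and not a bound site. With a share as small as 1.24%, no match in 7 windows tells little about these genes.

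Among the genes that supply acetyl-CoA the levels were lower in UKS to a different degree. Acly (ENSMUSG00000020917; minus strand of chromosome 11, 100476353 to 100528000 on GRCm38) encodes ATP citrate lyase, which makes cytosolic acetyl-CoA from citrate. It had 7466 counts (320 CPM) in UKS and 13648 counts (517 CPM) in KS, 1.62-fold lower [1.57 to 1.66] with a log2 ratio of -0.69. Acss2 (ENSMUSG00000027605; plus strand of chromosome 2, 155517948 to 155585724 on GRCm38) encodes the synthetase that makes acetyl-CoA from acetate. It had 343 counts (14.7 CPM) in UKS and 437 counts (16.6 CPM) in KS, 1.13-fold lower with an interval of 0.976 to 1.30 that includes equal levels. Acss2 was the only one of the 10 genes whose interval reached equality. At this depth small ratios clear equality too, as for Elovl5 at 1.15-fold lower [1.08 to 1.21]. The share of all measured genes that do so was not counted. Its span overlaps Gss (1285 counts in UKS and 1047 in KS) and Ggt7 (350 counts in UKS and 169 in KS), both on the other strand and both with more counts in UKS, so reads assigned between these genes make the Acss2 value uncertain. No other gene of the 10 overlaps a measured gene. Acly made up 95.6% of the counts of this pair in UKS (Wilson 95% interval 95.1 to 96.0%) and 96.9% in KS (96.6 to 97.2%).

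The carboxylase and the synthase were both lower in UKS. Acaca (ENSMUSG00000020532; plus strand of chromosome 11, 84129672 to 84401651 on GRCm38), which encodes acetyl-CoA carboxylase and with it the committed step of the pathway, had 2191 counts (93.8 CPM) in UKS and 5336 counts (202 CPM) in KS. It was 2.15-fold lower [2.05 to 2.26], with a log2 ratio of -1.10. Fasn (ENSMUSG00000025153; minus strand of chromosome 11, 120805846 to 120824547 on GRCm38), the fatty acid synthase gene whose promoter is printed above, had 11482 counts (492 CPM) in UKS and 20365 counts (771 CPM) in KS. It was 1.57-fold lower [1.53 to 1.61], with a log2 ratio of -0.65, and so stayed within 2-fold.

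The elongases were the most unequal pair. Elovl6 (ENSMUSG00000041220; plus strand of chromosome 3, 129532355 to 129638495 on GRCm38), which lengthens the palmitate that the synthase releases, had 490 counts (20.99 CPM) in UKS and 2543 counts (96.3 CPM) in KS. Its log2 ratio of -2.15, a level 4.59-fold lower [4.17 to 5.07], was the lowest of the 10 genes as counted. Among measured genes 1.13% had a lower one. With the length and GC trend removed the Elovl6 value was -1.56, above those of Scd1 (-1.73) and Scd2 (-1.63). Elovl5 (ENSMUSG00000032349; plus strand of chromosome 9, 77917364 to 77984519 on GRCm38), which lengthens polyunsaturated chains, had 2044 counts (87.5 CPM) in UKS and 2648 counts (100.3 CPM) in KS, 1.15-fold lower [1.08 to 1.21] with a log2 ratio of -0.19. The share of Elovl5 in the summed counts of the pair was 80.7% in UKS (79.1 to 82.2%) and 51.0% in KS (49.7 to 52.4%). Expressed as CPM per kb of transcript the share was 89.9% in UKS and 69.0% in KS.

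The stearoyl-CoA desaturases, which place the first double bond and so make oleate and palmitoleate, had the lowest ratios after Elovl6 as counted. Scd1 (ENSMUSG00000037071; minus strand of chromosome 19, 44394455 to 44407879 on GRCm38), the main form of liver and fat, had 2655 counts (114 CPM) in UKS and 12068 counts (457 CPM) in KS, 4.02-fold lower [3.85 to 4.19] with a log2 ratio of -2.00. Scd2 (ENSMUSG00000025203; plus strand of chromosome 19, 44293674 to 44306864 on GRCm38), a form known from brain and from embryonic tissues, had 10661 counts (457 CPM) in UKS and 42766 counts (1620 CPM) in KS, 3.55-fold lower [3.47 to 3.62] with a log2 ratio of -1.82. These genes are similar in sequence, and their deposited counts were not whole in either library, as was also so for Acaca, so reads may have been shared out between similar genes. Summed over Scd1 and Scd2, which does not depend on how reads were divided between them, the level was 570 CPM in UKS and 2077 CPM in KS, 3.64-fold lower [3.57 to 3.71]. Scd1 made up 19.9% of the counts of the pair in UKS (19.3 to 20.6%) and 22.0% in KS (21.7 to 22.4%), a difference of small size between intervals that do not overlap. Scd2 alone accounted for 24.8% of the summed CPM of the 10 genes in UKS and 38.8% in KS.

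The front-end desaturases, which act on polyunsaturated acids, were lower by a smaller amount. Fads1 (ENSMUSG00000010663; plus strand of chromosome 19, 10182888 to 10196877 on GRCm38) had 4257 counts (182 CPM) in UKS and 7521 counts (285 CPM) in KS, 1.56-fold lower [1.505 to 1.62] with a log2 ratio of -0.64. Fads2 (ENSMUSG00000024665; minus strand of chromosome 19, 10062765 to 10101746 on GRCm38), which catalyses the entry step of that route, had 1419 counts (60.8 CPM) in UKS and 2806 counts (106 CPM) in KS, 1.75-fold lower [1.64 to 1.87] with a log2 ratio of -0.80. Fads1 made up 75% of the counts of the pair in UKS (73.9 to 76.1%) and 72.8% in KS (72.0 to 73.7%).

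Compared per kb of the longest protein-coding transcript, Scd2 was the most abundant of the 10 genes in each library, at 83.7 CPM per kb in UKS and 297 CPM per kb in KS, and Acly came next, at 72.2 and 117 CPM per kb in UKS and KS. In UKS the order went on with Fads1 (52.7 CPM per kb), Fasn (48.9), Elovl5 (31.5), Scd1 (23.5), Fads2 (19.3), Acaca (9.86), Acss2 (5.01) and Elovl6 (3.53). In KS it went on with Scd1 (94.6 CPM per kb), Fads1 (82.3), Fasn (76.8), Elovl5 (36.1), Fads2 (33.7), Acaca (21.2), Elovl6 (16.2) and Acss2 (5.65). Scd1 thus had rank 6 in UKS and rank 3 in KS, and Elovl6 stood last in UKS and above Acss2 in KS. Counting intervals of neighbours in the order overlapped for none of 9 pairs in UKS and for 1 of 9 in KS, Elovl5 and Fads2. The order rests on the transcript taken: with the median length of protein-coding transcripts 9 of the 10 genes changed place in UKS and 6 in KS, with Acaca at rank 2 in each. Elovl5 was then first and Scd2 at rank 4 in UKS, Scd2 stayed first in KS, and Elovl6 and Acss2 held ranks 9 and 10 in each library, so their exchange was lost. Scd1 was then at rank 7 in UKS and rank 3 in KS. No length enters the calculation of the ratio of a gene between libraries, though ratios followed transcript length, as described next.

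Across the transcriptome ratios followed transcript length and GC content, and the fatty acid genes lie on different parts of that trend. Measured genes were cut into 10 bins of equal size. In the bin with the longest transcripts, which holds Acaca (9513 nt) and Fasn (10050 nt), the median log2 ratio was -0.65. In the bin that holds Elovl6 by GC content (44.0%) it was -0.47, and in the bin that holds Fads2 (54.4%) it was 0.33. With the trend removed by a robust regression, 4 of the 10 genes were again at least 2-fold lower, against 4.98% of measured genes, and the median log2 ratio was -0.75, beside 0.0039 over all measured genes. Over all genes the trend removal altered the split, with 713 genes past 2-fold upward (5.49%) and 647 downward, against 756 upward and 1396 downward as counted.

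The 4 genes were not the same ones. Scd1 (-1.73), Scd2 (-1.63) and Elovl6 (-1.56) remained past 2-fold, Fads2 (-1.05) joined them and Acaca (-0.53) came within 2-fold. The other log2 ratios with the trend removed were -0.78 for Fads1, -0.72 for Acly, -0.36 for Acss2 and -0.36 for Fasn. Elovl5 stood at 0.0088, so 9 of the 10 genes had a ratio below 0, against 49.6% of measured genes. Among the measured genes 1.31% had a lower value than Scd1, 1.53% a lower value than Scd2 and 1.74% a lower value than Elovl6.

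**Figure D2:**
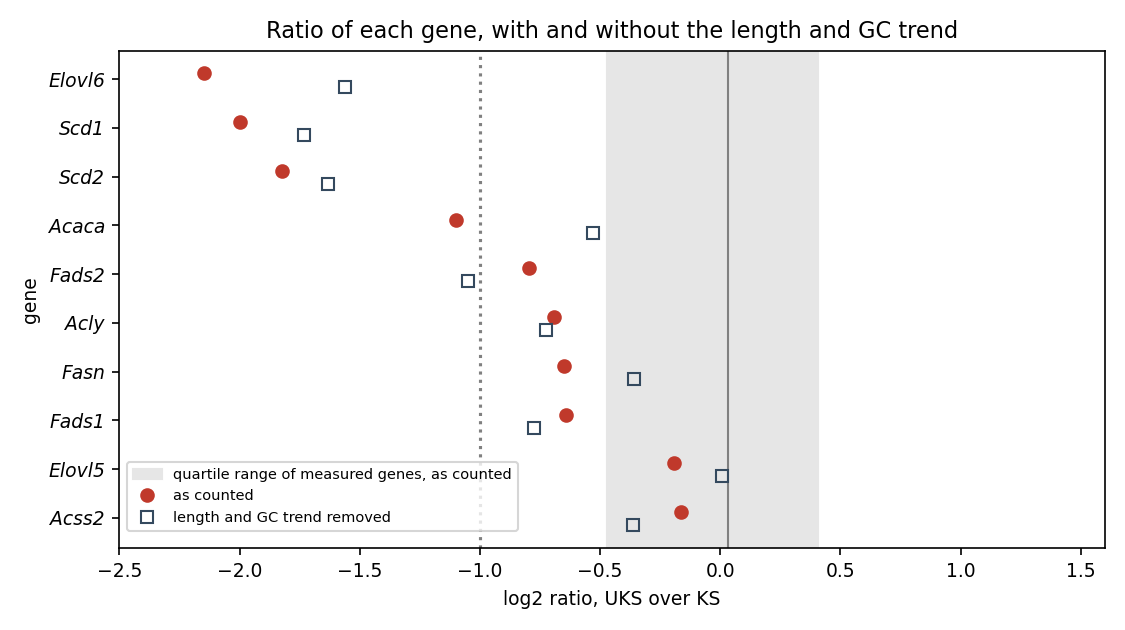
Log2 ratio of UKS over KS for each of the 10 genes as counted (red circles) and with the trend in transcript length and GC content removed (open squares), with the range between the quartiles of all measured genes as counted in grey, their median as a solid line and 2-fold lower as a dotted line. Elovl6, Scd1 and Scd2 lie left of the dotted line on either scale, Acaca and Fads2 on one of them, and Elovl5 and Acss2 lie inside the grey band.

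**Figure D3:**
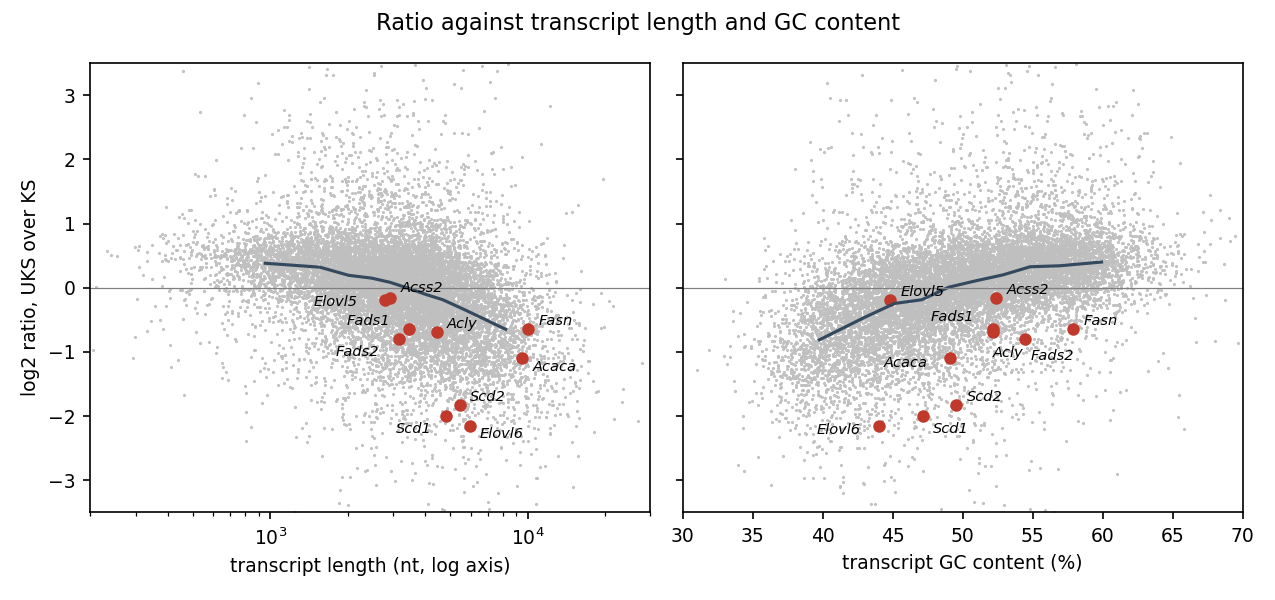
Log2 ratio of UKS over KS against transcript length in nt (left, log axis) and GC content in percent (right) for measured genes (grey) and the 10 fatty acid genes (red), with the median in each of 10 bins of equal size as a line. Elovl6, Scd1 and Scd2 lie far below the line on either panel, Elovl5 close to it by GC content, and Acaca and Fasn at the long end; the vertical axis is limited to 3.5 in either direction.

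The desaturase genes sit in 2 groups on chromosome 19, and the genes beside them went both ways. In the Scd group, Scd3 had no count in UKS and 1 in KS, and Scd4 had 3 counts in each library, so Scd1 and Scd2 were the forms measured above 1 CPM. No other measured gene lay within 100 kb of Scd1 or Scd2. In the Fads group, Fads3, a relative of the front-end desaturases, had 52.2 CPM in UKS and 82.3 CPM in KS, a log2 ratio of -0.65 that is close to those of Fads1 and Fads2. Of the other measured neighbours within 100 kb, Rab3il1 was lower (log2 ratio -1.39), while the ferritin heavy chain gene Fth1 (1.71), Myrf (1.76), Dagla (0.63), Tmem258 (0.59), the replication nuclease gene Fen1 (0.59) and the predicted gene Gm10143 (0.31) were higher. Gm10143 and Tmem258 overlap Fen1, so reads they share make these 3 values uncertain.

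The regulators of the pathway were divided. Of 14 listed, 12 were measured, of which 3 were past 2-fold downward in UKS, against 10.7% of all measured genes, and none upward, against 5.81%. The median log2 ratio was -0.14. With the length and GC trend removed 2 of the 12 (Insig1 and Mid1ip1) were past 2-fold downward, against 4.98%, and the median was -0.06. Srebf1 and Srebf2, which encode the SREBP factors, had 147 and 304 CPM in UKS and 178 and 359 CPM in KS, log2 ratios of -0.28 and -0.24. Insig1, which encodes an endoplasmic reticulum protein that retains SREBP and is itself an SREBP target, had 59.4 CPM in UKS and 147 CPM in KS, 2.48-fold lower [2.33 to 2.63]. Mid1ip1, which encodes an activator of acetyl-CoA carboxylase, had 29.9 CPM in UKS and 64.5 CPM in KS, 2.15-fold lower [1.97 to 2.36]. The SREBP protease gene Mbtps2 had 23.8 CPM in UKS and 48.9 CPM in KS, and its log2 ratio of -1.01 was -0.22 with the length and GC trend removed.

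Other parts of the SREBP machinery were nearer to equal. The log2 ratio was 0.22 for the escort protein gene Scap, 0.27 for the protease gene Mbtps1 and -0.03 for Insig2. With the trend removed these values were -0.02, 0.22 and 0.08, so Scap and Insig2 changed sign. The LXR genes Nr1h2 and Nr1h3 had log2 ratios of 0.48 and 0.92, which were -0.02 and 0.45 with the trend removed, and Nr1h3 was scarce, at 3.68 CPM in UKS and 1.48 CPM in KS. The carbohydrate-response factor genes Mlxip and Mlx stood at -0.30 and 0.37 (-0.10 and 0.14 with the trend removed), Mlxipl had 12 counts in UKS and 1 in KS, and Thrsp had no count in either library.

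Genes of cholesterol synthesis and uptake, which share the SREBP factors, were also mostly lower. Of 20 measured, 6 were past 2-fold downward, against 10.7% of all measured genes, and none upward, against 5.81%. A ratio below 0 was found for 19, against 48.1%, and the median log2 ratio was -0.84. With the trend removed 8 were past 2-fold downward, against 4.98%, all 20 were below 0, against 49.6%, and the median was -0.93. Idi1, the isopentenyl diphosphate isomerase gene, had 43.3 CPM in UKS and 130 CPM in KS. Hmgcs1, the cytosolic HMG-CoA synthase gene, had 73.3 CPM in UKS and 202 CPM in KS. Sc5d and Msmo1, which encode enzymes of the late sterol steps, were 2.94-fold and 2.47-fold lower; with the trend removed their log2 ratios were -0.98 and -1.20, which puts Sc5d within 2-fold.

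Most genes that break fatty acids down stood on the other side. Of 17 measured genes of fatty acid oxidation 15 had a ratio above 0 and 2 below, against 48.1% of all measured genes below 0, and the median log2 ratio was 0.48. None passed 2-fold, against 10.7% of measured genes downward and 5.81% upward. The thiolase gene Acaa2 had 114 CPM in UKS and 61.6 CPM in KS, and the very-long-chain acyl-CoA dehydrogenase gene Acadvl had 103 CPM in UKS and 57.4 CPM in KS. Of the 2 below 0, Acadm, another acyl-CoA dehydrogenase gene, had 21.8 CPM in UKS and 35.1 CPM in KS. Its log2 ratio was -0.66, and -0.74 with the trend removed. With the trend removed the median was 0.35 and 5 of the 17 were below 0, against 49.6%. The difference between these genes and those of synthesis was not tested, since each library is a single sample.

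In the other lists of synthesis genes no member passed 2-fold on either scale. Among all measured genes 10.7% did so downward and 5.81% upward as counted, and 4.98% and 5.49% with the trend removed. The medians of these lists depended on the trend. The 10 genes of precursor and NADPH supply had a median log2 ratio of 0.26, which was -0.23 with the trend removed. Among them Acacb, the mitochondrial form of the carboxylase, had 5.14 CPM in UKS and 2.61 CPM in KS, G6pdx, the entry enzyme of the pentose phosphate route, had 203 CPM in UKS and 133 CPM in KS, and malic enzyme Me1 had 89.6 CPM in UKS and 131 CPM in KS. The 9 other elongation genes measured had a median of 0.14 (-0.08 with the trend removed), with Elovl7 at -0.69 and the dehydratase gene Hacd3 at 0.62, and the 5 other desaturation genes a median of -0.10 (-0.14 with the trend removed), with Fads3 the lowest. The 5 genes measured of mitochondrial fatty acid synthesis, a separate pathway that makes the lipoate precursor, had a median of -0.0070 and lay between -0.17 and 0.22. With the trend removed their median was 0.36, above that of the oxidation genes, and they ran from -0.53 for Mcat to 0.52 for Oxsm.

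Genes that use fatty acids went both ways, and few passed 2-fold. Of 7 acyl-CoA synthetase genes, Slc27a1, a fatty acid transport protein gene, had 79.7 CPM in UKS and 26.7 CPM in KS, 2.98-fold higher [2.74 to 3.26]. Acsl3 and Acsl4 had log2 ratios of -0.99 and -0.96, which were -0.55 and -0.05 with the trend removed. Of 13 genes of glycerolipid assembly, Dgat2, which encodes an enzyme of the last step of triglyceride synthesis, had 21.6 CPM in UKS and 5.42 CPM in KS, 3.99-fold higher [3.31 to 4.84]. Slc27a1 and Dgat2 stood at 1.15 and 1.41 with the trend removed. By the log2 ratio, Slc27a1 and Dgat2 were each the 1 gene of their list past 2-fold as counted, against 5.81% of measured genes upward. In lists of 7 and 13 genes, 1 such gene tells little about the list. Acsl3, 2.02-fold lower without the added 1 CPM, fell just short of that bar. With the trend removed Agpat5, an acyltransferase gene, joined Dgat2, at 1.69 beside 0.63 as counted, so that 2 of 13 were past 2-fold upward, against 5.49%. The median log2 ratios of these lists were -0.09 and 0.14, and 0.16 and 0.15 with the trend removed.

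**Figure D4:**
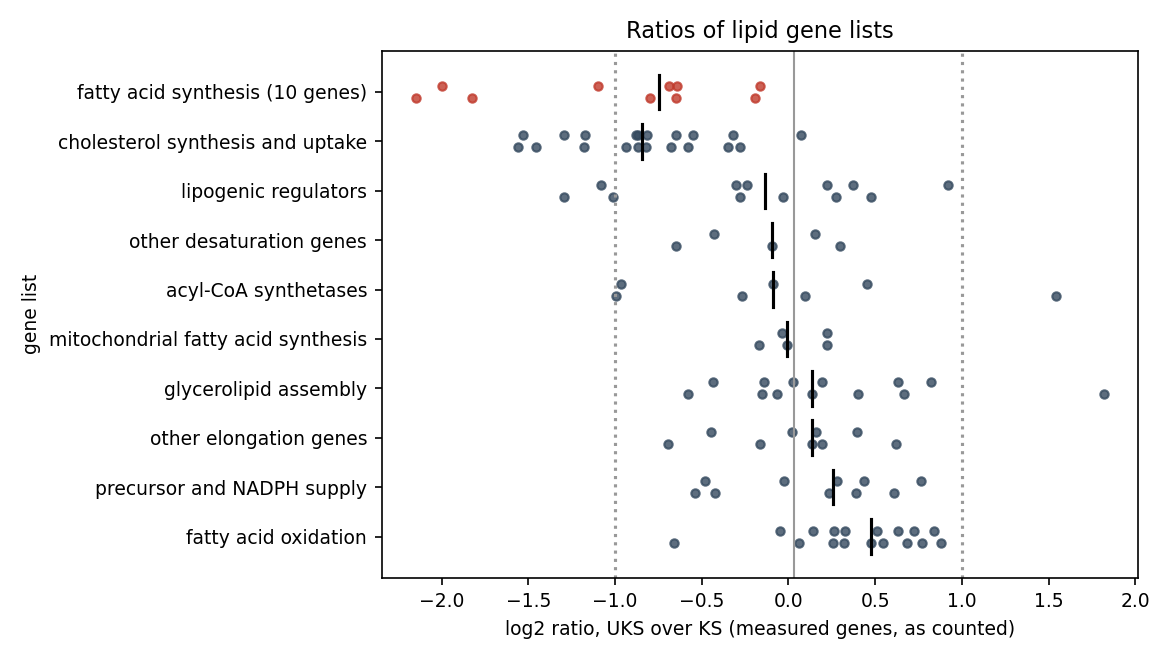
Log2 ratio of UKS over KS as counted for each measured gene of the fatty acid synthesis genes (red, top row) and of 9 other lists of lipid genes (dark, ordered by median), with list medians as black bars, the median of all measured genes as a solid line and 2-fold in either direction as dotted lines. The fatty acid and cholesterol lists have medians of -0.74 and -0.84, and the oxidation list has the highest median, 0.48.

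Cells rich in these enzymes were looked for through their markers. Of 8 adipocyte markers 4 were measured, and their summed level over all 8 was 74.2 CPM in UKS and 43.8 CPM in KS. Genes of mature adipocytes were at or near 0, with no count of Cidec in UKS and 1 in KS, no count of Adipoq in UKS and 1 in KS, no count of Lep in either library and 1 count of Plin1 in each. The adipogenic factor genes were above 1 CPM, with 421 counts (18.0 CPM) of Cebpa in UKS and 164 (6.21 CPM) in KS, 2.90-fold higher, and 156 counts (6.68 CPM) of Pparg in UKS and 279 (10.6 CPM) in KS, 1.58-fold lower. The other measured ones also went both ways: the fatty acid binding protein gene Fabp4 had 1125 counts in UKS and 116 in KS, and the lipoprotein lipase gene Lpl had 30 counts in UKS and 595 in KS. The part of such cells in the values of the 10 genes was not tested. Of 6 hepatocyte markers 1 was measured, and their summed level was 2.74 CPM in UKS and 3.33 CPM in KS. The summed levels in UKS and KS were 1.499 and 3.79 CPM for 6 epithelial markers, 5.40 and 6.25 CPM for 6 macrophage markers, most of it Cd68, and 3.64 and 3.41 CPM for 5 endothelial markers.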

How the data were processed

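RNA was measured in 1 UKS and 1 KS library. Libraries were built from TRIzol-extracted total RNA with a TruSeq kit, per the labels' protocols. The submitters' processing notes name HISAT2, StringTie and the build GRCm38.p5, with no role. For the counting program, annotation and strand setting, nothing is stated in the labels or file headers. The authors deposited estimated counts for each gene, unscaled, and 21.5% of the values above 0 were not whole in UKS and 23.1% in KS. Without strand, reads of overlapping genes cannot be told apart.

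Counts were rounded, scaled with TMM factors (edgeR 4.0.16, R 4.3.3; 1.01 in UKS and 0.994 in KS) and filtered at a mean of 1 CPM. A count of 1 equals 0.0428 CPM in UKS and 0.0379 CPM in KS, and a floor of 3 counts is 0.128 CPM in UKS and 0.114 CPM in KS. A 2-fold difference is a size, not a test. Ratios have exact conditional binomial intervals, levels exact Poisson and shares Wilson intervals (scipy 1.17.1), which cover counting error only. Coordinates, length and GC content are those of GENCODE M21 on GRCm38, taken from the longest protein-coding transcript. The trend was fitted by robust regression (statsmodels 0.14.6) with cubic terms of GC content and log2 length on measured genes outside the lists, and 12997 genes had a value. Subtracting it takes away any true difference that follows either property too. On data simulated for UKS over KS over 51912 genes with counting error alone, 96% of 50 genes set 2.5-fold apart passed 2-fold and none of 12815 unchanged ones did.

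The genes and lists were chosen with earlier results of these data known. The genes named are the 10 fatty acid genes, Usp16, sex-linked controls, all lipogenic regulators, neighbours within 100 kb of the desaturase genes and up to 4 of each other list with the largest ratios, plus abundant or defining markers. One further engineered allele, carried by UKS and KS alike, and the values of some genes that the rule takes in are not reported here.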

Additional observations from a re-analysis of the deposited data

How the results depend on the processing

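The count of fatty acid genes at least 2-fold lower in UKS was 4 under 3 other scalings, pseudocounts of 0.5 and 5 CPM, other filters, unrounded counts and removal of the length and GC trend, and the median log2 ratio ranged there from -0.77 to -0.70. With removal of the trend Acaca left the 4 genes, Fads2 joined them and the Elovl5 log2 ratio changed sign, to 0.0088. At 1.5-fold in place of 2-fold, 8 of the 10 genes were lower as counted, since a lower bar takes in more genes. With the trend removed Acaca (-0.53) and Fasn (-0.36) came within 1.5-fold. The share of all measured genes past 1.5-fold was not counted on that scale. None was at least 2-fold higher under any setting run, nor at least 1.5-fold higher. Added after the data were seen, the 7 genes with whole deposited counts held 1 at least 2-fold lower (Elovl6) and a median of -0.65, as Scd1, Scd2 and Acaca are then left out. Relative to the median of all measured genes, also added, the count was 4 and the median -0.78. No paired analysis was possible because each line has 1 library. Among the 10 the counting interval included equal levels for Acss2 alone, a count without its share over all measured genes. Differences between cultures could not be measured for any of the 10.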
